A study of Mus musculus with 18 samples.

Results

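Interferon-induced genes, together with the genes that cut and load peptides for MHC class I, were followed in the ileum of mice fed chow or a Western diet (WD, labelled HFD). With earlier results of these data known, 43 genes were chosen by name for the set. Of these, 42 had at least 1 probe carrying their name on the array, and 41 had a signal above background and were tested, among 37074 gene names of which 21542 were tested. Each gene was read from its brightest probe. *Tgtp1* had no probe under that name, and *Ifit2* was too dim. By the cytokine that classically induces them, 21 genes were type I-induced, 21 were interferon-γ-induced, and *Zbp1* was kept apart because both cytokines induce it. Many of these genes answer to both cytokines, so the classes are a convention.

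Agilent one-colour arrays measured total RNA of cells isolated from the ileum of 18 mice on a C57BL6/J background, with 1 array per mouse and 6 mice in each of 3 groups. One group was Pgc1α fl/fl mice on chow and another was Pgc1α fl/fl mice on WD. The last was iPgc1α-/- mice on WD, which carry the same floxed alleles and a Cre driven by the villin promoter (*Vil1*), active in the intestinal epithelium, that removes exons 3 to 5 of *Pgc1α*. Diets began at 8 weeks of age and lasted 8 weeks, and the WD gave 42% of its energy as fat with 0.2% cholesterol. The floxed controls were littermates, called chow mice and WD mice below, and no chow-fed iPgc1α-/- group was analysed here.

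Interferons bind surface receptors that switch on JAK kinases and STAT transcription factors. Type I interferons assemble a complex that holds STAT2 and IRF9 on a DNA element called the ISRE and drive antiviral genes such as the OAS, IFIT and Mx families. Interferon-γ, made chiefly by T cells and natural killer cells, acts through the GAS element and raises the GTPases that act on vacuoles holding microbes and the machinery of class I antigen presentation.

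The promoters of the members show these elements, and a few stretches from the RefSeq promoter table (GRCm38.p6, a short window around each gene start) are printed here because most of their genes carry the diet result below, and *Oas1g*, not called on diet, stands beside its near copy *Oas1a*. Capitals mark a match to the ISRE core (GAAA, any 2 bases, GAAA) or to the GAS core (TTC, any 3 bases, GAA), searched on both strands, so that the ISRE also appears as TTTC, any 2 bases and TTTC. Each stretch reads 5′ to 3′ on the strand of its gene.
Gbp2: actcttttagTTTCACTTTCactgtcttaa
Igtp: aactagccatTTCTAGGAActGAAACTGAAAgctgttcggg
Irgm2: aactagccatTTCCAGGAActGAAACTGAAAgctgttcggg
Irf8: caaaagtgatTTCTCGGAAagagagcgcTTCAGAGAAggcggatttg
Socs1: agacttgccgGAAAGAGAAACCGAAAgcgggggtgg
Isg15: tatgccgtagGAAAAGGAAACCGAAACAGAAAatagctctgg
Ifit1: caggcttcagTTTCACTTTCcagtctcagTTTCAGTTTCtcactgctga
Oas1a: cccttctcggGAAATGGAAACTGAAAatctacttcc
Oas1g: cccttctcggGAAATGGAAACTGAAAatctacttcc

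The *Gbp2* stretch lies at chr3:142620594-142620623, with its match beginning 59 bases before the start. *Igtp* (chr11:58199501-58199541) and *Irgm2* (chr11:58214892-58214932), neighbouring GTPase genes on the plus strand, carry a GAS match directly followed by an ISRE match in nearly the same surroundings. *Irf8* (chr8:120736177-120736223, plus strand) holds 2 GAS matches. *Socs1* (chr16:10785594-10785629, minus strand) holds 2 overlapping ISRE matches and *Isg15* (chr4:156200865-156200906, minus strand) holds 3, while those of *Ifit1* (chr19:34640775-34640823, plus strand) stand apart. The stretches of *Oas1a* (chr5:120907520-120907555) and *Oas1g* (chr5:120887606-120887641), both on the minus strand, are identical, and these near copies may also share signal on the array.

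Promoters were found for 33 of the 43 members. An ISRE match was present in 20 of them (60.6%), against 3.99% of all 27025 genes in the promoter table. A GAS match was present in 10 (30.3%), against 9.55% of all these genes. Among type I-induced members 11 of 16 held an ISRE match and 3 held a GAS match, and among interferon-γ-induced members the counts were 9 and 7 of 17. The interferon-γ-induced members with a promoter thus held a GAS match in 41.2% of cases and the type I-induced in 18.8%. No match was found in the windows of *Ubd*, *Irf7*, *Irf9*, *Oasl1*, *Oasl2*, *Psmb10*, *Tapbp*, *Psmb9* or *Tap1*. *Psmb9* and *Tap1* share 275 bases of promoter (chr17:34187306-34187580) because the genes point away from each other. A match describes letters in a window and is not a measured binding site.

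Across the 18 arrays, between 56.3% and 62.3% of spots were well above background and none was saturated. Values below are log2 normalized signals. A gene was called when its adjusted p (limma with Benjamini-Hochberg adjustment over all 32726 probes tested) was at most 0.05 and its fold was over 1.5. Differences between mice may include technical spread. *Ppargc1a*, the targeted gene, ranged from 11.26 to 11.45 in WD mice and from 11.36 to 12.01 in the arrays labelled iPgc1α-/- (difference 0.30, adjusted p = 0.573). The exon its probe lies in was not determined here, so it is no check of the deletion, and directions between genotypes refer to the labels.

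The diet comparison asked how WD changed these genes in mice with floxed, intact *Pgc1α*. All 41 measured members had a lower mean on WD than on chow, and 26 of them were called lower and none higher. Across all genes tested, 5.2% were called lower and 3.22% higher. Without the fold threshold 33 members passed lower, against 14.2% of all genes. The median log2 fold change of the members was -0.88, and that of all genes was 0.003. Because the members were chosen with earlier results of these data known, these counts and medians are no independent check. The genes ranged from *Ubd*, which fell by 4.43 on the log2 scale, to *Tapbp*, with a difference of -0.06.

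**Figure D1:**
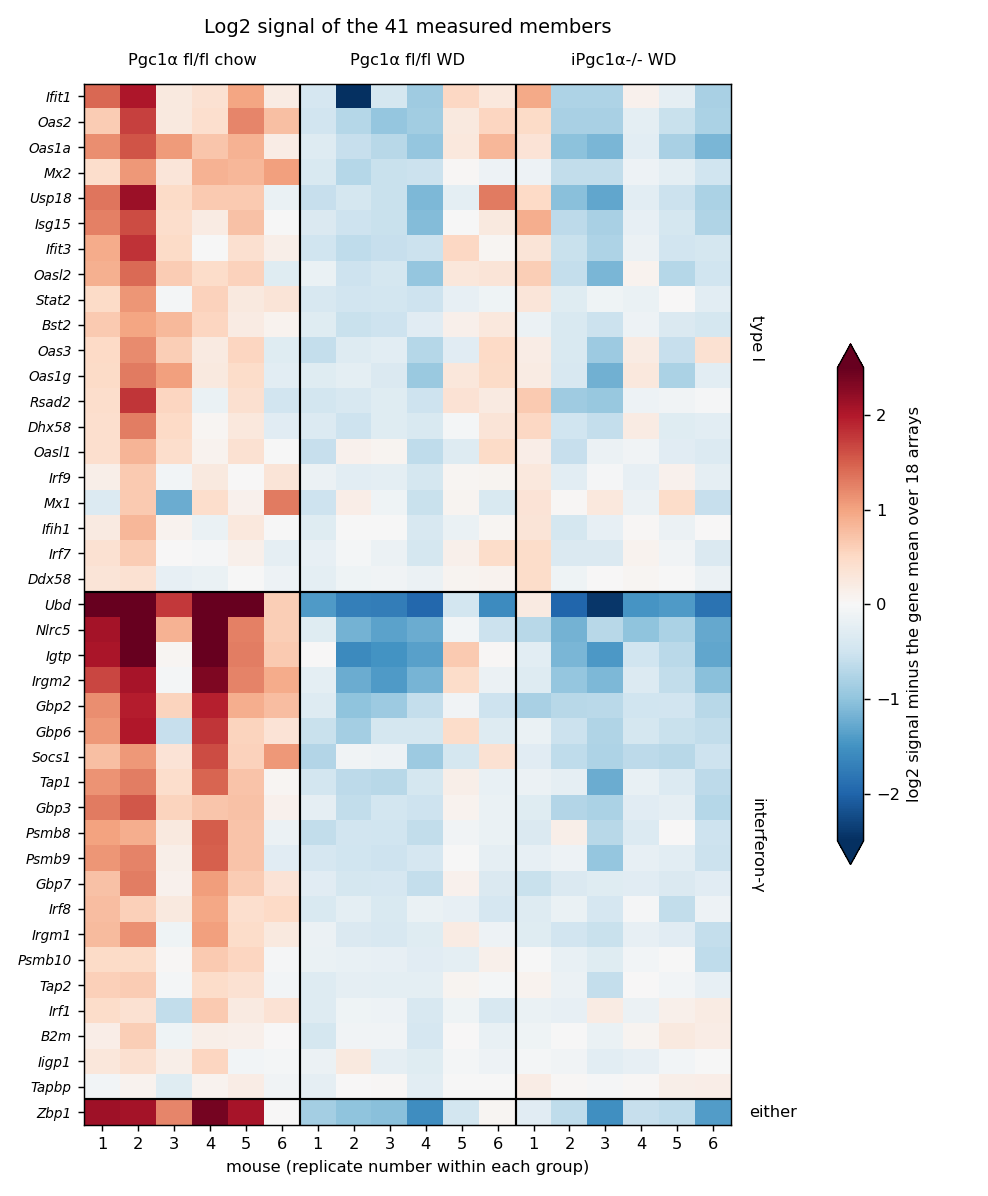
Each row is a member and each column a mouse, coloured by its log2 signal minus the gene's mean over the 18 arrays, with the colour scale ending at -2.5 and 2.5. Rows are ordered by the diet difference within each class. Chow mice were above the gene mean for most members, and the 2 WD groups look alike, with *Ubd*, *Nlrc5*, *Igtp* and *Zbp1* showing the widest contrast.

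Among interferon-γ-induced members, 14 of 20 were called lower and 19 passed the adjusted p alone, with a median of -1.098. *Ubd* encodes a ubiquitin-like modifier (FAT10) that marks proteins for the proteasome. Its signal ran from 9.02 to 13.09 in chow mice (median 11.78) and from 6.45 to 7.95 in WD mice (median 6.76), a fall of 4.43 (SE 0.53, adjusted p = 6.78e-06) or 21.5-fold. Every chow mouse exceeded every WD mouse. In the mm9 positions of the array files its probe lies at chr17:37332688-37332747, that of *Nlrc5* at chr8:97051105-97051164, that of *Gbp2* at chr3:142300719-142300778 and that of *Ifit1* at chr19:34723827-34723886; their place within exons was not determined here.

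The class I transactivator *Nlrc5*, which switches on class I genes, ran from 7.79 to 10.06 in chow mice (median 8.85) and from 5.85 to 7.11 in WD mice (median 6.32). It fell by 2.501 (SE 0.33, adjusted p = 1.52e-05), and the groups did not overlap. A second, dimmer *Nlrc5* probe, close to background, gave -0.37. *Irf8*, a transcription factor of the interferon pathway, was at 12.06 to 12.78 on chow and at 11.40 to 11.65 on WD, again without overlap, and fell by 0.88 (adjusted p = 1.44e-05). *Irf1*, the first-wave transcription factor, had a difference of -0.49 (adjusted p = 0.0262) that passed the adjusted p but not the fold. Its lowest chow mouse (12.58) lay below every WD mouse.

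*Socs1*, the feedback inhibitor of JAK signalling, ran from 7.92 to 9.22 on chow (median 8.50) and from 6.68 to 7.97 on WD (median 7.30). It fell by 1.23 (SE 0.20, adjusted p = 0.000174). The ranges overlapped slightly.

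Of the GTPases, 7 of 8 measured were called lower. The 4 guanylate-binding proteins measured, which coat vacuoles holding microbes, were all called lower. *Gbp2* was at 6.92 to 8.31 on chow (median 7.39) and at 5.35 to 6.27 on WD (median 5.80), a fall of 1.79 (SE 0.21, adjusted p = 5.16e-06) with no overlap. *Gbp3* (5.87 to 7.31 on chow, 5.15 to 5.86 on WD) fell by 1.14 and *Gbp7* (5.47 to 6.64 on chow, 4.78 to 5.47 on WD) by 1.02, neither with overlap, but both narrowly. *Gbp6* (4.92 to 7.501 on chow, 4.65 to 5.95 on WD) fell by 1.23, and its groups overlapped. *Gbp6* and *Gbp7* were above background on only 2 of the 6 WD arrays. The differences of the dimmer genes depended on the background correction. With normexp they were -0.74 (*Gbp3*), -0.80 (*Gbp6*) and -0.57 (*Gbp7*, which then missed the fold threshold), and with background-subtracted signal they were -1.89, -2.497 and -2.34.

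Among the immunity-related GTPases, *Igtp* ran from 9.33 to 11.86 on chow (median 10.93) and from 7.69 to 9.94 on WD (median 8.61), a fall of 2.13 (SE 0.43, adjusted p = 0.00123). *Irgm2* (8.21 to 10.59 on chow, 6.83 to 8.72 on WD) fell by 1.99 (adjusted p = 0.000335) and *Irgm1* (8.85 to 10.11 on chow, 8.56 to 9.18 on WD) by 0.78 (adjusted p = 0.00211). In all of these the lowest chow mouse lay within the WD range. *Iigp1* depended on the probe: the brightest gave -0.31 (adjusted p = 0.0449, not called) and a second gave -1.31 (adjusted p = 0.0048).

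**Figure D2:**
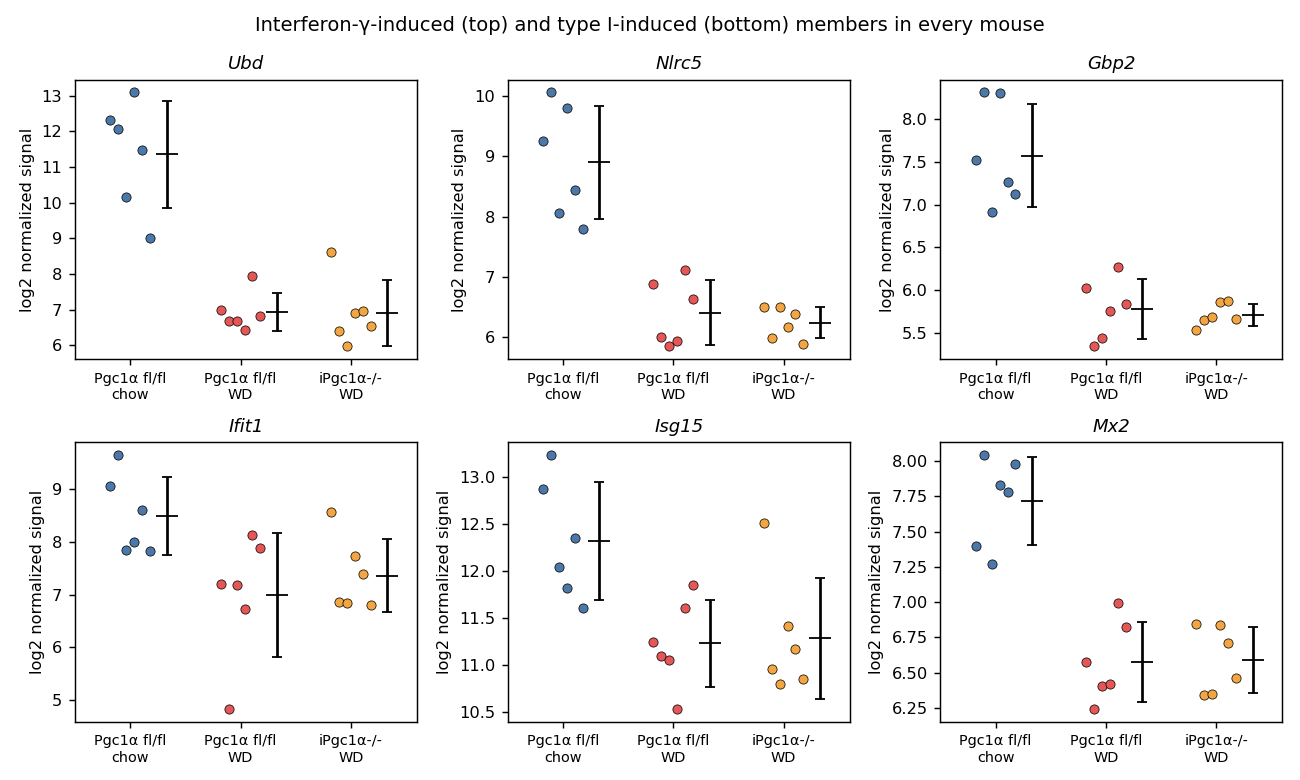
Log2 normalized signal of 6 members in every mouse, with bars for the mean and SD of 6 mice. For *Ubd*, *Nlrc5*, *Gbp2* and *Mx2* all chow mice lay above all WD mice, while for *Ifit1* and *Isg15* the groups overlapped, and the lowest *Ifit1* value (4.83) belonged to 1 WD array.

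The antigen processing members split. Of 8 genes, *Nlrc5* included, 4 were called lower and 7 passed the adjusted p alone, with a median of -0.80. The immunoproteasome subunits *Psmb8* and *Psmb9*, which replace constitutive subunits to change peptide cutting, were at 11.46 to 13.11 and 11.36 to 13.15 on chow. On WD they were at 10.99 to 11.52 and 11.13 to 11.64, and they fell by 1.11 (adjusted p = 0.000639) and 1.08 (adjusted p = 0.00194). With a second, dimmer probe averaged in, the *Psmb9* difference was -0.71. The third subunit, *Psmb10*, differed by -0.52 (adjusted p = 0.00469), short of the fold threshold.

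Of the peptide transporter, *Tap1* ran from 10.22 to 11.63 on chow (median 11.09) and from 9.47 to 10.31 on WD (median 9.72), a fall of 1.23 (SE 0.22, adjusted p = 0.000466). Its partner *Tap2* differed by -0.50 (adjusted p = 0.00983). *B2m*, the light chain of class I, differed by -0.36 (adjusted p = 0.0249), and *Tapbp*, the loading chaperone, by -0.06 (adjusted p = 0.659). Among the 8 genes *Tapbp* was the one that did not pass the adjusted p.

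Among type I-induced members, 11 of 20 were called lower and 13 passed the adjusted p alone, with a median of -0.75. Here the chow and WD groups separated fully for 2 genes, *Mx2* and *Stat2*. *Mx2*, a GTPase gene of the Mx family, was at 7.27 to 8.04 on chow (median 7.81) and at 6.24 to 6.99 on WD (median 6.50), a fall of 1.14 (SE 0.15, adjusted p = 1.46e-05). *Stat2*, part of the ISRE-binding complex, was at 10.45 to 11.61 on chow and at 9.99 to 10.41 on WD, a fall of 0.81 (adjusted p = 0.000511). A second *Stat2* probe gave -0.17, and with all probes averaged the gene lost its call.

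*Ifit1*, which binds foreign RNA, ran from 7.82 to 9.64 on chow (median 8.30) and from 4.83 to 8.12 on WD (median 7.18). It fell by 1.51 (SE 0.45, adjusted p = 0.0199), the largest fall of the class, and its lowest WD array was not above background; without that array the fall was 1.07. With background-subtracted signal it lost its call (-2.06, adjusted p = 0.0612). Its relative *Ifit3* (7.74 to 9.56 on chow, 7.13 to 8.28 on WD) fell by 0.90 (adjusted p = 0.0171). *Ifit2* was above background on 4 chow arrays and on none of the WD arrays, so it was not tested and was at least 1.29-fold lower on WD, setting the chow mean against the dimmest signal measurable on the WD arrays.

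The genes of the OAS family, some of which encode enzymes that make the signal that activates RNase L, were uneven. *Oas1a* (12.71 to 14.08 on chow, 11.55 to 13.35 on WD) fell by 1.17 (adjusted p = 0.0072) and *Oas2* (8.35 to 9.81 on chow, 7.15 to 8.64 on WD) by 1.2 (adjusted p = 0.00444). *Oas3* (6.79 to 8.27 on chow, 6.38 to 7.59 on WD) and *Oasl2* (10.67 to 12.39 on chow, 9.99 to 11.30 on WD) fell by 0.74 and 0.86. The last calls were fragile, as each was lost in 7 of the fits that left out 1 array. *Oas1g* (-0.72) and *Oasl1* (-0.51) were not called, the latter for its fold.

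*Isg15*, a ubiquitin-like protein attached to other proteins, ran from 11.60 to 13.24 on chow (median 12.20) and from 10.53 to 11.85 on WD (median 11.17). It fell by 1.095 (SE 0.30, adjusted p = 0.0109). *Usp18*, the protease that removes it, ran from 7.71 to 10.003 on chow and from 6.75 to 9.17 on WD, and fell by 1.13 (adjusted p = 0.037), a call lost in 8 of the fits that left out 1 array. *Bst2*, which tethers budding virus, fell by 0.76 (adjusted p = 0.0014), with 8.94 to 9.85 on chow and 8.30 to 9.11 on WD.

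The remaining type I-induced members did not pass or fell short. The RNA sensors *Ddx58* (-0.11), *Ifih1* (-0.35) and *Dhx58* (-0.59) did not pass the adjusted p, nor did *Rsad2* (-0.61), *Mx1* (-0.37) or the transcription factor *Irf7* (-0.20). *Irf9*, the DNA-binding partner of *Stat2*, had -0.38 (adjusted p = 0.0301). In *Mx1* the chow mice ranged from 6.25 to 8.79 and enclosed all of the WD mice.

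*Zbp1*, a sensor of nucleic acids placed in neither class, ran from 8.10 to 10.48 on chow (median 10.16) and from 6.54 to 8.13 on WD (median 7.16). It fell by 2.45 (SE 0.34, adjusted p = 2.68e-05). The lowest chow mouse lay at the level of the highest WD mouse. Its second probe gave -2.18.

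**Figure D3:**
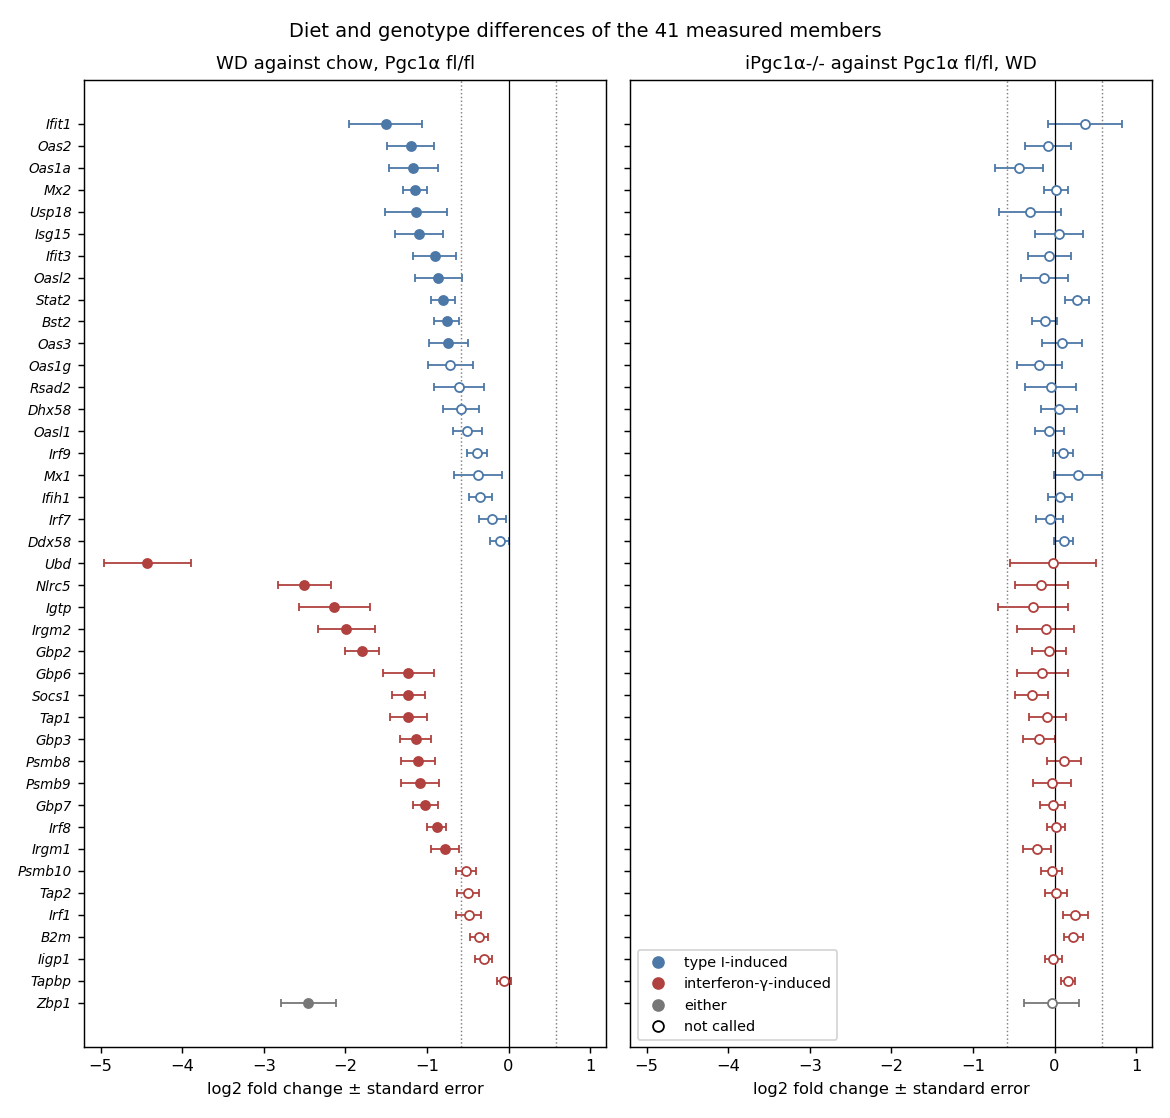
Log2 fold change with its standard error for each measured member, for diet (left) and genotype (right), with filled points for called genes and dotted lines at a fold of 1.5. The diet points lie left of 0 for all 41 members, from -4.43 to -0.06, and the genotype points lie around 0, from -0.43 to 0.37, none called.

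Set side by side, the interferon-γ-induced class had the larger shares and the lower median on WD: 14 of 20 called with a median of -1.098, against 11 of 20 called with -0.75 for the type I-induced class. Groups did not overlap for 6 interferon-γ-induced members and 2 type I-induced members, where 5.3% of all genes did so in the lower direction. The 14 called include *Gbp6* and *Gbp7*, which were above background on only 2 of the 6 WD arrays. The members without overlap include *Gbp3* and *Gbp7*, whose groups were only just apart. The difference between the classes is given as a description and was not tested. In the mean of each class per mouse, taken relative to the mean of each gene over the 18 arrays, the 20 interferon-γ-induced members were at 0.18 to 1.42 on chow and at -0.63 to 0.02 on WD, without overlap. The 20 type I-induced members were at 0.11 to 1.25 on chow and at -0.65 to 0.29 on WD, with 1 WD mouse inside the chow range. On the 3 slides, each holding 2 arrays of every group, the interferon-γ-induced mean differed by -0.90, -1.0 and -1.82 and the type I-induced mean by -0.66, -0.66 and -0.94, and 39 of 41 members were lower on every slide.

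**Figure D4:**
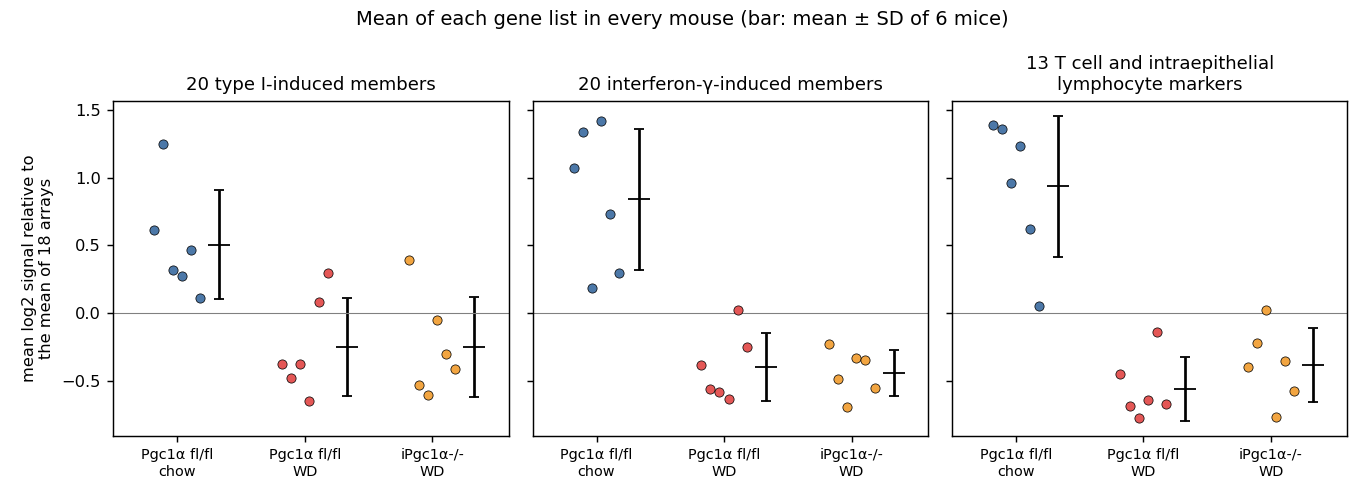
Mean log2 signal per mouse, relative to the 18-array mean of each gene, of the 20 type I-induced members, the 20 interferon-γ-induced members and 13 T cell markers, with bars for mean and SD of 6 mice. In the middle panel all chow mice (0.18 to 1.42) lie above all WD mice (-0.63 to 0.02), and the iPgc1α-/- mice lie among the latter.

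The pathway upstream of these genes was mixed. *Ifng* itself, the gene of interferon-γ, ran from 5.29 to 6.78 on chow and from 4.53 to 5.14 on WD, and fell by 1.25 (adjusted p = 0.000321), without overlap; it was above background on 1 of the 6 WD arrays. Among 9 interferon genes listed, *Ifnb1*, *Ifna4* and *Ifne* were above background on no array. *Ifna2* was above it on too few arrays to be tested, and *Ifnl2* had no probe. *Ifna1* (-0.08), *Ifnl3* (0.08) and *Ifnk* (-0.12) were not called. The last genes were dim, with means from 5.39 to 5.98 on chow and WD, so changes in them could have been missed. None of the 6 receptor chains was called. *Ifngr1* differed by -0.03 (adjusted p = 0.815), and *Ifngr2* and *Il10rb* had 0.36 (adjusted p = 0.0128) and 0.45 (adjusted p = 0.00576). *Tmem173*, the DNA-sensing adaptor STING, fell by 1.48 (adjusted p = 8.32e-07), the only 1 of 6 upstream sensing genes called.

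Other interferon genes, which are not members, were counted from lists written beside the set. These lists were written with earlier results of these data known, so their counts are no independent check. Of 14 further interferon-γ-induced genes measured, 11 were called lower, with a median of -1.11, where 5.2% of all genes were called lower. Some of the 11 were dim on WD: *Gbp8* was above background on 3 of the 6 WD arrays, *Gbp4* and *Cxcl10* on 4, and *Cxcl9* on none. *Nos2*, which makes nitric oxide, fell by 2.47 (adjusted p = 6.05e-05), *Ido1*, a tryptophan-degrading enzyme, by 1.47 and *Ciita*, the class II transactivator, by 1.16 (adjusted p = 0.00781). Of 20 further type I-induced genes, 6 were called lower, with a median of -0.42, among them *Ifitm3* (-1.48). The chemokine *Cxcl9*, one of the 11 interferon-γ-induced genes called lower, was above background on all 6 chow arrays. It was at least 1.79-fold lower on WD. Its limma difference was -0.91 (adjusted p = 3.2e-05), but the WD values in that test were not above background.

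Of 12 class I heavy chain genes, 1 was called lower, *H2-M3* (-1.06, adjusted p = 9e-05), where 5.2% of all genes were called lower. A count of 1 in 12 cannot be told from that share. *H2-K1* ran from 16.11 to 16.61 on chow and from 16.16 to 16.51 on WD, a difference of 0.08 (adjusted p = 0.551). *H2-D1* had -0.34 (adjusted p = 0.0571). The constitutive proteasome subunits *Psmb5*, *Psmb6* and *Psmb7*, which the immunoproteasome subunits replace, had -0.11, -0.07 and -0.26 and did not pass the adjusted p.

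Lymphocyte genes moved in the same direction. In RNA from mixed cells, fewer cells of a type and less RNA per cell cannot be told apart. Of 13 T cell and intraepithelial lymphocyte markers, 12 were called lower on WD, where 5.2% of all genes were, with a median of -1.67. *Cd8a* fell by 1.76 (adjusted p = 7.12e-06) and the granzyme *Gzma* by 2.17 (adjusted p = 5.29e-06), while *Cd247* had 0.01. The mean of the 13 markers was 0.05 to 1.39 on chow and -0.77 to -0.14 on WD, without overlap, and differed by -1.59, -0.95 and -1.96 on the 3 slides. In the genotype comparison none of the 13 was called, and their median was 0.23. Of 6 B cell markers 4 were called lower, with a median of -1.57. One of 2 natural killer markers measured (*Klrd1*, -1.19) and 1 of 3 plasma cell markers (*Mzb1*, -1.68) were called lower, and of 7 macrophage and dendritic cell markers measured 1 was (*Itgax*, -0.82). None of 3 stromal and endothelial markers measured was called, and *Col1a1*, *Pdgfra*, *Cdh5* and *Kdr* were below the filter. Of 9 enterocyte markers, 1 was called higher, the brush border phosphatase *Alpi* (0.90, adjusted p = 0.000189), and 1 lower, the ileal bile acid transporter *Slc10a2* (-1.07, adjusted p = 0.023). The median of the 9 was -0.04. Across all genes tested, 5.2% were called lower and 3.22% higher. Single calls in lists this short cannot be told from those shares. The part of these lymphocyte genes in the fall of the members was not tested.

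**Figure D5:**
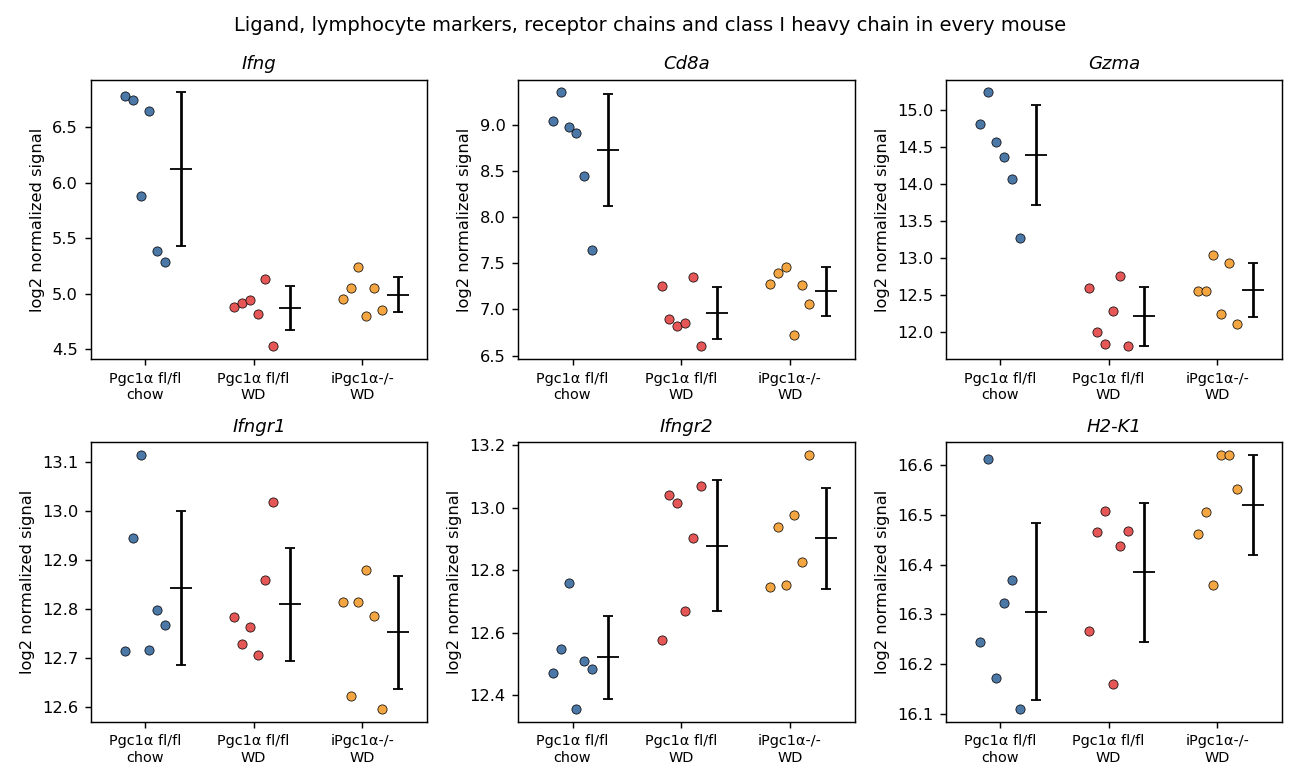
Log2 normalized signal in every mouse of the ligand *Ifng*, the T cell markers *Cd8a* and *Gzma*, the receptor chains *Ifngr1* and *Ifngr2* and the class I heavy chain *H2-K1*, with bars for the mean and SD of 6 mice. *Ifng*, *Cd8a* and *Gzma* were higher in every chow mouse than in every WD mouse, whereas *Ifngr1* and *H2-K1* overlapped.

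The genotype comparison asked how the deletion of *Pgc1α* in the epithelium changed these genes under WD. The WD mice are those of the diet comparison. No member was called in either direction with limma, where 0.135% of all genes (29) were called. None passed the adjusted p alone, where 0.065% of all genes passed higher and 0.162% lower, and 2000 of all genes were below an unadjusted p of 0.05. The median of the members was -0.03, with 16 higher and 25 lower by their means, against 0.006 for all genes.

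The largest type I-induced differences were *Oas1a* (-0.43, adjusted p = 0.653), *Ifit1* (0.37, adjusted p = 0.818) and *Usp18* (-0.30, adjusted p = 0.833). *Ifit1* was at 6.80 to 8.56 in arrays labelled iPgc1α-/- and *Oas1a* at 11.37 to 12.86, both overlapping the WD mice. Without the dim WD array the *Ifit1* difference was -0.07, so it turned on that array. Among interferon-γ-induced members *Socs1* (-0.28), *Igtp* (-0.27) and *Irf1* (0.25) differed most and did not pass. *Ubd* was at 5.97 to 8.63, a difference of -0.02, and *Nlrc5* at 5.89 to 6.49, one of -0.16. The median standard error over all genes was 0.105, and those of *Ubd* (0.53) and *Ifit1* (0.45) were larger. A call needed a difference of several standard errors. The upstream sensing gene *Tbk1*, for example, had 0.46 with a standard error of 0.11 and did not pass (adjusted p = 0.154). Changes of *Ubd* or *Ifit1* well beyond their standard errors could therefore have been missed.

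Against chow, the arrays labelled iPgc1α-/- on WD used the same chow arrays as control as the diet comparison did, and their values are set beside it here. Of the 41 members 25 were called lower and none higher, where 6.85% of all genes were called lower and 4.94% higher, with a median of -0.99. Type I-induced members made up 10 of these and interferon-γ-induced members 14. *Ubd* fell by 4.44, *Nlrc5* by 2.66 and *Gbp2* by 1.86, and *Ifit1* had -1.14 (adjusted p = 0.0557) and lost its call. Groups did not overlap for 14 members, where 8.65% of all genes did so in the lower direction. *Gbp6* and *Gbp7*, both among the 25 called, were above background on only 2 of the 6 arrays labelled iPgc1α-/-.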

How the data were processed

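RNA from 18 mice was hybridised to Agilent SurePrint G3 Mouse GE v2 arrays and read by the authors with Agilent Feature Extraction 10.10.1.1, per the labels. The deposited scanner files hold median spot intensity (gMedianSignal), not normalized. The authors' own log2 values, deposited as a table, were corrected by them for washing bath and labelling serial and quantile smoothed; those batches are not named in the sources used here, so that correction was not repeated and the table served as an alternative. Probe positions in the files are mm9.

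Control and outlier spots were dropped, spots of a probe averaged, and probes kept if well above background on 5 of 6 arrays of a group. Intensity was log2 transformed, smoothed by qsmooth (window 0.05) and fitted with limma 3.58.1 (R 4.3.3) in 1 model of 3 groups. A replicate block, slide block, other scalings, filters, probe averaging and leaving out each array were the alternatives. Members and lists were chosen with earlier results of these data known. The brightest probe stood for a gene; members that were called or largest in a class are given in full. On simulated data with 32638 probes, 78% of diet changes of 0.75 on the log2 scale and 96% of changes of 1 were called, with 6 false calls. The changed probes were drawn at random from all of these, and the median standard error over all genes was 0.105. The rates therefore do not hold for more variable members, such as *Ubd* (standard error 0.53) and *Ifit1* (0.45). Figures used matplotlib 3.10.9.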

Additional observations from a re-analysis of the deposited data

Results flagged for a closer look

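In 129 groups of 6 mice tested for a member standing apart, 8 were past Dixon's criterion, where chance flags about 1 in 20 groups, or 6.4 here. In arrays labelled iPgc1α-/-, replicate 1 was highest for *Ddx58* (11.60, next 11.19) and *Isg15* (12.52, next 11.41) and lowest for *Gbp7* (4.82, next 5.00). Among Pgc1α fl/fl mice on WD, replicate 6 was highest for *Oas3* (7.59), *Psmb10* (15.03) and *Usp18* (9.17), and replicate 5 for *Ubd* (7.95, next 6.99). In chow mice replicate 3 was lowest for *Irf1* (12.58, next 13.41).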

How the results depend on the processing

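Of the counts and medians for the 3 comparisons, 3 moved past 1.5 times. The type I-induced members called on diet were 11, but 7 when each array was scaled to its 75th percentile after background subtraction and 5 at an adjusted p of 0.01, and those called between iPgc1α-/- mice on WD and chow mice were 10, but 6 at that threshold. The other 228 such values under alternatives, and all 270 with 1 array left out, stayed within 1.5 times (counts) or within the spread between mice (medians). The genotype medians, close to 0, took either sign when 1 array was left out, from -0.146 to 0.087 for type I-induced and from -0.08 to 0.041 for interferon-γ-induced members. The diet count of all members, 26, ranged from 20 (adjusted p of 0.01) to 33 (no fold threshold), and leaving out 1 array gave 23 to 29; the genotype count stayed at 0. With *Usp18* the call was lost in 8 fits without 1 array (chow 1, 2, 4, 5 and WD 1, 2, 3, 4), with adjusted p up to 0.0883; *Oas3* in 7 (chow 1, 2, 5 and WD 1, 2, 3, 4), up to 0.0804; *Oasl2* in 7 (chow 1, 2, 4, 5 and WD 2, 3, 4), up to 0.0817. With all probes of a gene averaged, the diet difference of *Nlrc5* was -1.435 and *Stat2* (-0.486) was not called. The diet difference of *Tapbp* was 0.06 under that scaling and 0.024 with the uncorrected median signal scaled likewise. When 1 array was left out, genotype differences ran from -0.065 (without WD replicate 2) to 0.611 for *Ifit1*, from -0.464 to 0.003 (without WD replicate 5) for *Igtp* and from -0.507 to 0.009 (without WD replicate 6) for *Usp18*. As replicate numbers are shared by the groups, a fit with the replicate block was made, which gave 25 diet calls, 0 genotype calls and 24 against chow. The correlation of the deviations in 18 pairs of mice with the same number ran from -0.217 to 0.346, with 9 above 0.1. Mice with different numbers were not compared, so these values cannot decide whether the numbers pair the mice. *Oas3* was not called with the block (adjusted p = 0.054).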
